A study of Mus musculus with 16 samples.

Results

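The data described here are single-cell transcriptomes of CD4+IL-4eGFP+ cells, called Th2 cells in the study, from the mediastinal lymph node (medLN) and the mesenteric lymph node (MLN) of 2 mice infected with the rodent nematode Nippostrongylus brasiliensis (Nb). The mice were IL-4eGFP reporter (4get) animals on a C57BL/6 background, in which a fluorescent protein follows transcription of the Il4 gene, so that cells licensed for IL-4 are marked whether or not they secrete it. Both mice were infected at 10 weeks of age with 500 larvae, received antibiotics in the drinking water, and were analyzed at day 10 after infection. Cells of the 4 nodes were labeled with hashtag antibodies and pooled, CD4+ cells were sorted by the reporter, and no uninfected animals were part of this comparison. Members are the IL-4eGFP+ cells with over 500 UMIs (counted RNA molecules), over 500 genes and under 7% mitochondrial UMIs, in which 1 of the 4 hashtags made up at least 80% of the hashtag UMIs with at least 10 of them. Of 9603 IL-4eGFP+ barcodes, 9385 passed the filters and 8172 could be given to a node and a mouse, out of 26002 barcodes in the whole series. The comparison asks how Th2 cells of the same animal differ between both nodes.

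The medLN drains the lung, through which the larvae pass first, and the MLN drains the small intestine, where the worms mature. T cells enter lymph nodes from the blood with the help of the chemokine receptor CCR7, and leave them along a lipid gradient sensed by S1PR1. Dendritic cells of gut-draining nodes make retinoic acid, which induces the small intestine homing receptor CCR9 in T cells, whereas β1 integrins (Itgb1) are associated with entry into inflamed tissue such as the lung. GATA3 is the lineage factor of Th2 cells, with IL-4, IL-5 and IL-13 as their main cytokines.

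The assignment of each cell rests on the 15-base barcodes of the 4 hashtag antibodies, which are shown here because they alone carry the organ and the mouse, and which differ from each other at 11 to 13 positions.
medLN mouse 1: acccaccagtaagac
medLN mouse 2: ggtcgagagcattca
MLN mouse 1: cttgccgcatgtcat
MLN mouse 2: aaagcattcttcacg
These gave 2067 and 2087 cells for medLN of mouse 1 and 2 and 2004 and 2014 cells for MLN. In 1213 cells the leading hashtag stayed below 80%, and these cells were left out. The cut touched few cells, as 87 had a leading share of 75 to 80% and 68 one of 80 to 85%. All 4 samples were in 1 RNA library, so they share its free RNA, and 115 of the barcodes used here also occurred among the cells kept from the IL-4eGFP- library of the same nodes.

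The 4 samples were similar in depth, with 9274904 to 10650712 UMIs summed over cells and a median of 3168 to 3645.5 UMIs per cell. Cd3e, part of the T cell receptor complex, was detected in 95.9% to 96.8% of cells and Cd4 in 61.9% to 64.6%. Il4 had a UMI in 36.1% and 37.6% of the medLN cells and 38% and 42.6% of the MLN cells of mouse 1 and 2, and in 5 of 8932 IL-4eGFP- cells. Of the markers of other cell types, those of B cells (9 of 9 detected in every sample) summed to 361 to 552 CPM (UMIs of a gene per 1000000 UMIs of a sample), those of myeloid cells (8 of 9) to 189.6 to 255 CPM and Cd8a with Cd8b1 to 6.67 to 11.6 CPM. Of 9 basophil and eosinophil markers, 2 were detected in every sample and 4 (Fcer1a, Epx, Prss34 and Ms4a2) were at 0 in all 4 samples. This list summed to 2.1 and 1.71 CPM in medLN and 3.88 and 3.57 CPM in MLN of mouse 1 and 2. Cells holding immunoglobulin, B cell or myeloid genes above a small floor made up 2.18% and 3.11% of medLN cells and 8.53% and 7.001% of MLN cells, and in a fit without these cells 329 genes passed the test used below, 241 of them among the 265 of the main comparison.

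For the comparison, the UMIs of each gene were summed over the cells of a sample, and medLN was compared with MLN by the quasi-likelihood test of edgeR with the mouse as a term, at a Benjamini-Hochberg adjusted p of 0.05. In such sums, more cells that express a gene and more RNA per cell cannot be told apart. Of 11313 genes tested, 265 passed the threshold (2.34%), of which 129 were higher (1.14%) and 136 lower (1.20%) in medLN than in MLN. Called or not, 5676 genes had a log2 fold change above 0 and 5637 below. These values over all genes are the background for the counts of calls and signs of every list below. Large differences were seen in Itgb1, S100a4 and Nrp1, which were higher in medLN, and in Ccr9, Lztfl1 and Gzma, which were lower. Differences were mostly moderate: leaving out immunoglobulin genes and Timp1, which had over 50% of its UMIs in a single cell, 251 called genes remained, 36 with a log2 fold change over 1, 51 under -1 and 164 between. Their median absolute log2 fold change was 0.65. The count of calls depended on the fit: without the mouse as a term 110 genes passed, DESeq2 called 63, and leaving out 1 medLN sample at a time left 18 (without mouse 1) or 45 (without mouse 2). With 1 MLN sample left out, 341 (without mouse 1) and 356 (without mouse 2) passed. With DESeq2, 46 of the 83 named genes that passed missed the threshold. With either medLN sample left out, most of the 83 missed it too. Without medLN of mouse 1 these included Ccr9 (log2 fold change -2.48) and Gzma (-2.69). Itgb1, S100a4, Nrp1, Lztfl1, Gimap7 and Ramp1 passed in the same direction in all 18 alternatives. Without the mouse as a term, 38 of the 83 named genes that passed missed the threshold. The adjusted p was then 0.0504 to 0.0689 for Tigit, Tox2, Cxcr6, Icos, Dusp2, Il7r, Ebi3, Fcer1g, Cd27, Nfkb1, Gcnt1, Id3, Hpgds, Gzma, Igfbp7 and Ccr4, 0.0856 to 0.107 for Tpx2, S1pr1, Rora, Kif11, Foxp3, Gimap5, Rarg, Ly6c1 and Ighm, and 0.116 to 0.931 for Il2rb, Tnfrsf9, Areg, Cd96, Igkv17-127, Lgmn, Ahr, Smad7, P2rx7, Ighv1-47, Hif1a, Jchain and Igkv4-57. At an equal depth of 2000 UMIs per cell, 12 of the named genes missed it, with an adjusted p of 0.06 to 0.686 (Gimap5, Hist1h1a, Rarg, Gbp2, Ahr, Igfbp7, Gcnt1, Smad7, Ly6c1, Nusap1, Kif11 and Tpx2). With 2 mice, p-values rest on these samples alone, and the fit takes the spread of a gene in part from other genes (prior degrees of freedom 8.29). Levels of single genes are given as CPM scaled by the normalization of edgeR, and differences as log2 fold changes of medLN over MLN ± a standard error. This error is the size of the log2 fold change divided by the root of the F statistic. It thus carries the spread taken from other genes and is not the spread between both mice. A gene is said to rise or fall only where it passed. For genes that passed, groups without overlap are a description and no further support, since the test picked them by this difference.

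**Figure D1:**
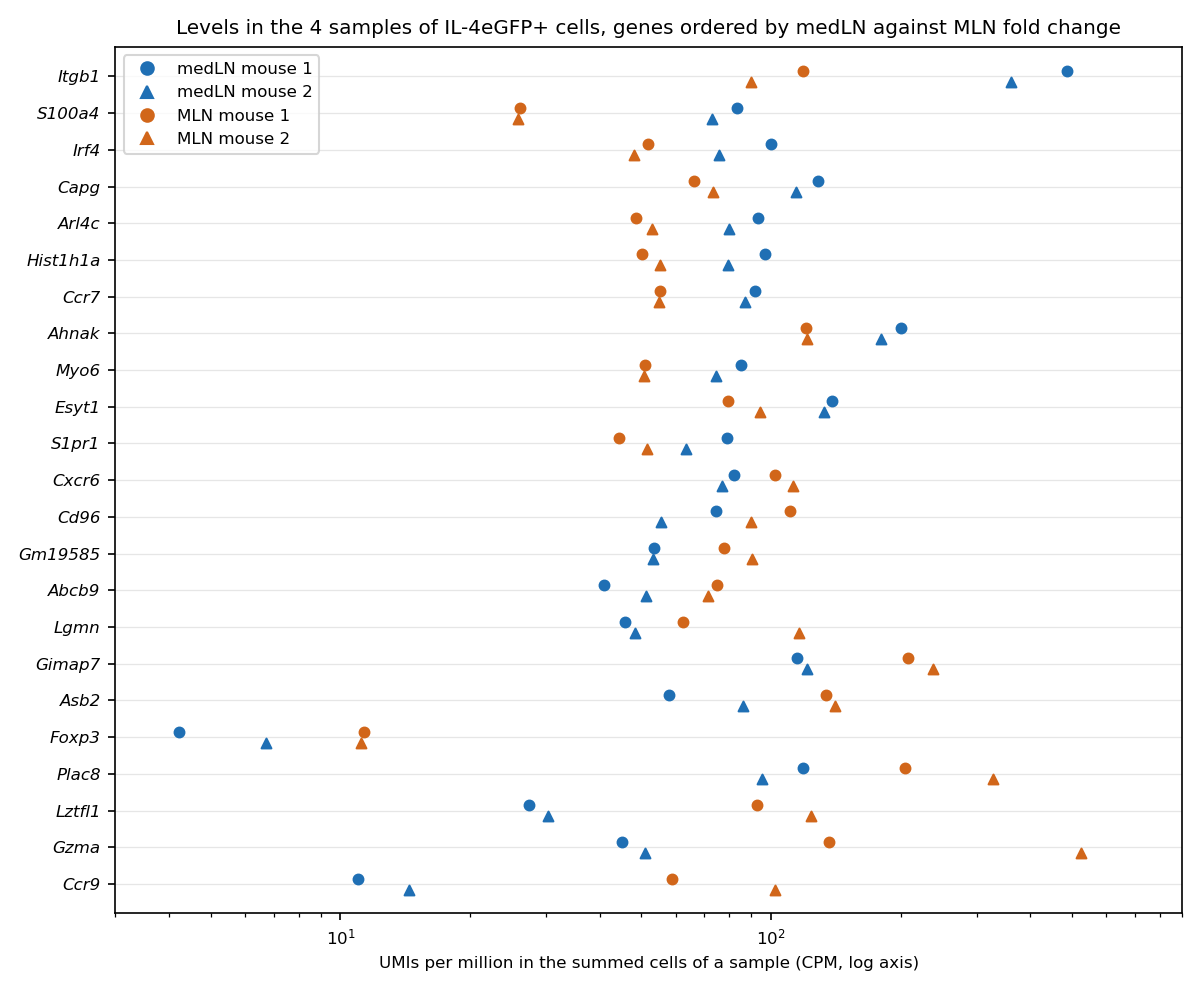
Level of 23 named genes in the 4 samples of IL-4eGFP+ cells, on a log axis in CPM. Each point is 1 sample, blue for medLN and orange for MLN, with circles for mouse 1 and triangles for mouse 2, and genes are ordered by the fitted fold change. In every gene shown, both medLN samples lie on the same side of both MLN samples, and the gap is widest for Itgb1, S100a4, Lztfl1, Gzma and Ccr9. Genes were shown only if they passed the test, so this separation is largely given by the choice.

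Of the gut homing genes, 3 were lower in medLN. Ccr9, the receptor for the small intestine chemokine CCL25, reached 11 and 14.4 CPM in medLN of mouse 1 and 2 and 58.8 and 102 CPM in MLN. Both MLN samples lay far above both medLN samples, and the fitted difference was a log2 fold change of -2.65 ± 0.11 (SE, 2 mice, adjusted p = 2.83e-06). Lztfl1, a ciliary trafficking protein encoded next to Ccr9, had 27.4 and 30.3 CPM in medLN of mouse 1 and 2 and 92.8 and 124 CPM in MLN. Again the groups did not overlap, with a log2 fold change of -1.90 ± 0.088, adjusted p = 4.73e-06. Of the 9 tested genes of the gut homing list, 3 fell (Ccr9, Itgae and Cxcr6) and 6 did not pass, with a median log2 fold change of -0.028 beside 0.00082 over all genes tested. DESeq2 called 1 of the 9, Ccr9, beside 63 of all 11313 genes tested. It did not call Itgae (adjusted p = 0.758) or Cxcr6 (adjusted p = 0.283). Itgae, the integrin chain that binds E-cadherin on epithelium, had 6.33 and 6.01 CPM against 12 and 13.4 CPM in MLN (-1.04 ± 0.17, adjusted p = 0.0127), and Cxcr6, a receptor of tissue-resident T cells, 82 and 77 CPM against 102 and 112 CPM (-0.43 ± 0.075, adjusted p = 0.0164). The subunits of the gut homing integrin α4β7 did not pass. Itgb7 was at 271 and 249.7 CPM in medLN of mouse 1 and 2 and 245 and 277 CPM in MLN, with overlapping groups and a log2 fold change of -0.0031 ± 0.07 (adjusted p = 0.99), and Itga4 at 215 and 192 CPM against 181 and 222 CPM in MLN (0.015 ± 0.091, adjusted p = 0.965). Without mouse as a term Cxcr6 did not pass (adjusted p = 0.0512), and without cells that hold a Ccr9 UMI its log2 fold change was -0.054 (adjusted p = 0.772).

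Ccr9 is also on the list of retinoic acid induced genes, chosen like all lists with earlier results of these data known. Its median, -0.64, was the lowest of all lists with 5 or more tested members, a rank that this choice can shape. Of its 10 tested genes 5 fell, 1 rose and 4 did not pass, beside 1.20% of all genes tested that fell and 1.14% that rose. Besides Ccr9 and Lztfl1, those that fell were Hic1, a transcriptional repressor, with 5.07 and 7.91 CPM against 20.1 and 29.4 CPM (-1.93 ± 0.13, adjusted p = 7.26e-05), Asb2, a subunit of a ubiquitin ligase, with 58 and 86.3 CPM against 134 and 140.4 CPM (-0.94 ± 0.10, adjusted p = 0.00163), and Tgm2, a transglutaminase, with 0.422 and 0.801 CPM against 3.79 and 4.2 CPM (-2.68 ± 0.39, adjusted p = 0.00695). In each of these both medLN samples lay below both MLN samples, although Tgm2 was at a few UMIs in medLN. Rarg, which encodes a retinoic acid receptor, rose, with 8.97 and 5.3 CPM against 2.49 and 2.58 CPM (1.46 ± 0.27, adjusted p = 0.0245). Cyp26a1, Cyp26b1, Rarb and Il1rn were too low to be tested. Leaving out all cells with a Ccr9 UMI, Lztfl1 kept a log2 fold change of -1.53, Hic1 of -1.75 and Asb2 of -0.94, all past the threshold. This left out 2.12% and 3.65% of the UMIs in medLN of mouse 1 and 2 and 11.4% and 21.4% in MLN, and with them 34.9% and 46.0% of the Cxcr6 UMIs of MLN.

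In the GENCODE M21 annotation of GRCm38, the gene model of Ccr9 lies on the forward strand at chr9:123678439-123784330 and spans Lztfl1, which lies on the reverse strand at chr9:123694416-123717697. Whether the counting used strand is not given in the sources used here, so reads of the overlapping part could be split between them, and the part of this in their joint change was not tested. Of 12 genes listed as neighbors of Ccr9, itself included, 10 were tested, of which 3 fell and 1 rose. Among those tested, Ccrl2 lies at -12621 kb on the same chromosome and is no close neighbor. It did not pass and is not shown in the figure. Cxcr6, at chr9:123806475-123811760, fell, whereas Sacm1l (-0.14), Slc6a20b (0.053) and Fyco1 (-0.013), whose starts lie at -149 to 173 kb from that of Ccr9, did not pass the test. These distances and the overlap hold for the GENCODE model only, since the start of Ccr9 in RefSeq (chr9:123767211) lies 88.8 kb further on and past Lztfl1. Ccr3, the eotaxin receptor further along, rose from 0.541 and 0.382 CPM in MLN to 3.17 and 3.4 CPM in medLN (2.81 ± 0.42, adjusted p = 0.00802). Its UMIs came from 9 and 9 medLN and 3 and 4 MLN cells, with 17.8% of them in 1 cell, and DESeq2 did not call it (adjusted p = 0.376). Since Ccr9 and Lztfl1 were both lower in medLN than in MLN, their RefSeq promoters (GRCm38.p6, 250 bases before to 50 after the start) are shown in lower case, the first at chr9:123766961-123767260 on the forward strand and the second at chr9:123717576-123717875 on the reverse strand.
Ccr9 promoter: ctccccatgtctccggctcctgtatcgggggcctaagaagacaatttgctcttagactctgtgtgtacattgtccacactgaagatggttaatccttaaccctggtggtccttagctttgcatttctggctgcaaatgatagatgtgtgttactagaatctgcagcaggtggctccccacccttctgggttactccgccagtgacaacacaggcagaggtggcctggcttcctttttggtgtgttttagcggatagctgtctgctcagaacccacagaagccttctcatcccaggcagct
Lztfl1 promoter: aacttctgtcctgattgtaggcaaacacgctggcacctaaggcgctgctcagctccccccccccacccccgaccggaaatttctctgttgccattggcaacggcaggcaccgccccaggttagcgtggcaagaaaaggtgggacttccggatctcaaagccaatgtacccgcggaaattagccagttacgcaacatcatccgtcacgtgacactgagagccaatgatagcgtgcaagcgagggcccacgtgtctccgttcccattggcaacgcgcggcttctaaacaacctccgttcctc
The hexamers AGGTCA and AGTTCA, core motifs of nuclear receptors such as the retinoic acid receptor, were searched on both strands. They occurred in 27.7% of 32851 promoters of this length and in 0 of the 6 promoters of Ccr9, Lztfl1, Hic1 and Asb2, which says only that these letters are not in these windows.

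**Figure D2:**
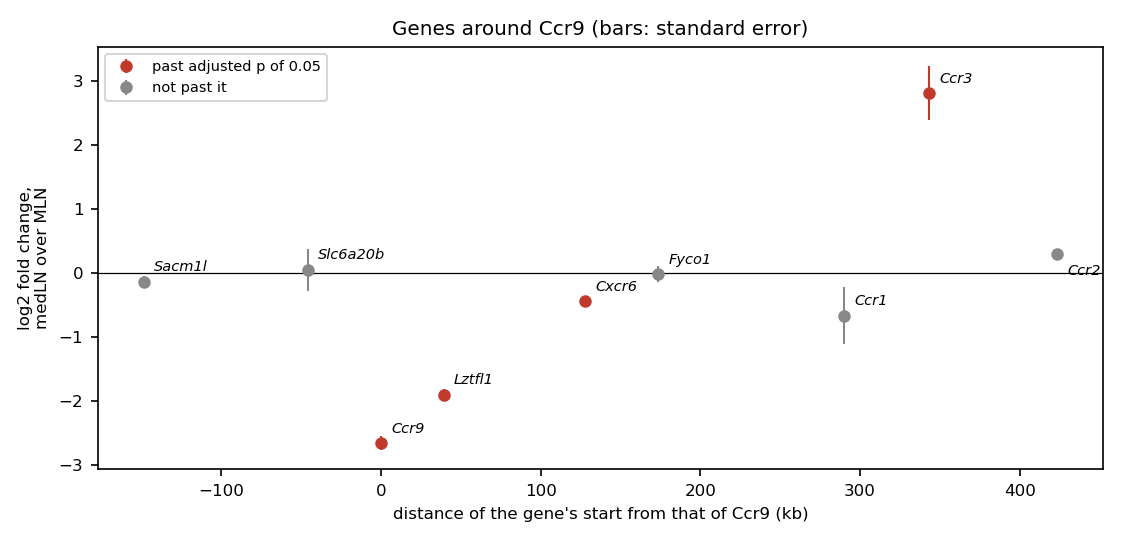
Log2 fold change of medLN over MLN (y axis, bars are standard errors) for tested genes around Ccr9, placed by the distance of their start from that of Ccr9 in the GENCODE annotation, in kb. Red points passed an adjusted p of 0.05, namely Ccr9, Lztfl1 and Cxcr6 below 0 and Ccr3 above, whereas Sacm1l, Slc6a20b, Fyco1, Ccr1 and Ccr2 (gray) did not.

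At the level of cells, a Ccr9 UMI was found in 2.18% and 2.59% of the medLN cells and 9.38% and 14.3% of the MLN cells of mouse 1 and 2, that is in 45, 54, 188 and 288 cells. The exact 95% intervals of both organs did not overlap, and at an equal depth of 2000 UMIs per cell the shares were 1.11% and 1.9% of the medLN cells and 6.97% and 9.23% of the MLN cells. In IL-4eGFP- cells of the same nodes, at a median of 3255 to 3385.5 UMIs, the shares were 1.02% and 1.22% of the medLN cells and 2.39% and 2.77% of the MLN cells. As a description of cells within each of the 4 samples, Lztfl1 was seen more often in cells with a Ccr9 UMI than in those without. The shares were 51.1% against 6.68% in medLN mouse 1, 42.6% against 8.12% in medLN mouse 2, 65.4% against 16.5% in MLN mouse 1 and 70.8% against 16.0% in MLN mouse 2, with exact 95% intervals that did not overlap within any sample. Cxcr6 had the same direction (59.3% to 65.4% against 14.6% to 18.7%), as did Plac8 (42% to 54.5% against 6.18% to 9.21%) and Gzma (25% to 38.2% against 1.93% to 13.4%). Cells with a Ccr9 UMI were deeper, with a median of 3928 to 5583.5 UMIs against 3150 to 3495, and at 2000 UMIs Lztfl1 was found in 20.0% to 49.7% of them against 4.66% to 10.7% of the others. At that depth Cxcr6 was found in 40.0% to 55.0% against 9.46% to 13.1%, Plac8 in 37.7% to 49.7% against 5.11% to 8.78% and Gzma in 16.4% to 40.0% against 1.40% to 11.2%. Itgb1 did not follow this split: it was seen in 33.3% and 44.4% of Ccr9-detected against 54.5% and 50.4% of the other medLN cells, and in 33.5% and 30.6% against 21.4% and 19.6% in MLN, where the shares at 2000 UMIs were 18% and 12.4% against 14.3% and 11.1%.

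Among genes of lymph node entry and egress, 3 were higher in medLN. Ccr7 had 91.7 and 87 CPM in medLN of mouse 1 and 2 and 55.2 and 55 CPM in MLN. Both medLN samples were above both MLN samples, and the log2 fold change was 0.70 ± 0.072, adjusted p = 0.00114. Of the 11 genes of this list 3 rose, 0 fell and 8 did not pass, with a median of 0.14. The other genes that rose were S1pr1, with 79 and 63.5 CPM against 44.3 and 51.6 CPM in MLN (0.56 ± 0.12, adjusted p = 0.0404), and Il7r, a survival receptor of naive and memory cells, with 113 and 92.1 CPM against 71.3 and 66.1 CPM (0.57 ± 0.073, adjusted p = 0.00375). Klf2, the transcription factor that drives S1pr1, had 318 and 295 CPM in medLN of mouse 1 and 2 and 210.4 and 264 CPM in MLN. Its groups did not overlap, but the test was not passed (0.37 ± 0.088, adjusted p = 0.0665). Without mouse as a term S1pr1 and Il7r missed the threshold (adjusted p = 0.0856 and 0.053).

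The naive and central memory list shared Ccr7 and Il7r with the former and held 5 of 14 genes that rose and 0 that fell (median 0.30). Igfbp4, a binding protein of insulin-like growth factors, rose with 37.3 and 57.9 CPM against 17.2 and 20.8 CPM in MLN (1.32 ± 0.11, adjusted p = 0.00026), Arl4c, a small GTPase, with 93 and 79.9 CPM against 48.5 and 52.9 CPM (0.76 ± 0.092, adjusted p = 0.00257), and Ly6c1 with 9.82 and 10.8 CPM against 4.98 and 6.3 CPM (0.87 ± 0.18, adjusted p = 0.0423). The transcription factors of this list did not pass. Among them, Lef1 had a log2 fold change of -0.18, Tcf7 of -0.045, Satb1 of -0.15 and Bach2 of 0.21. Klf2, given above, is on this list too and had the value nearest to passing of those named (0.37, adjusted p = 0.0665). Ramp1, part of the receptor for the neuropeptide CGRP and named here after its values were seen, had 37.7 and 44 CPM against 9.74 and 7.34 CPM (2.27 ± 0.14, adjusted p = 4.27e-05).

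In IL-4eGFP- cells of the same nodes, Igfbp4 was found in 48.3% to 54.4% and Itgb1 in 7.73% to 13.3% of cells. In IL-4eGFP+ cells, Igfbp4 was found in 5.08% and 5.89% of the medLN cells and 2.5% and 2.63% of the MLN cells of mouse 1 and 2, below the shares in IL-4eGFP- cells in all 4 samples.

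**Figure D3:**
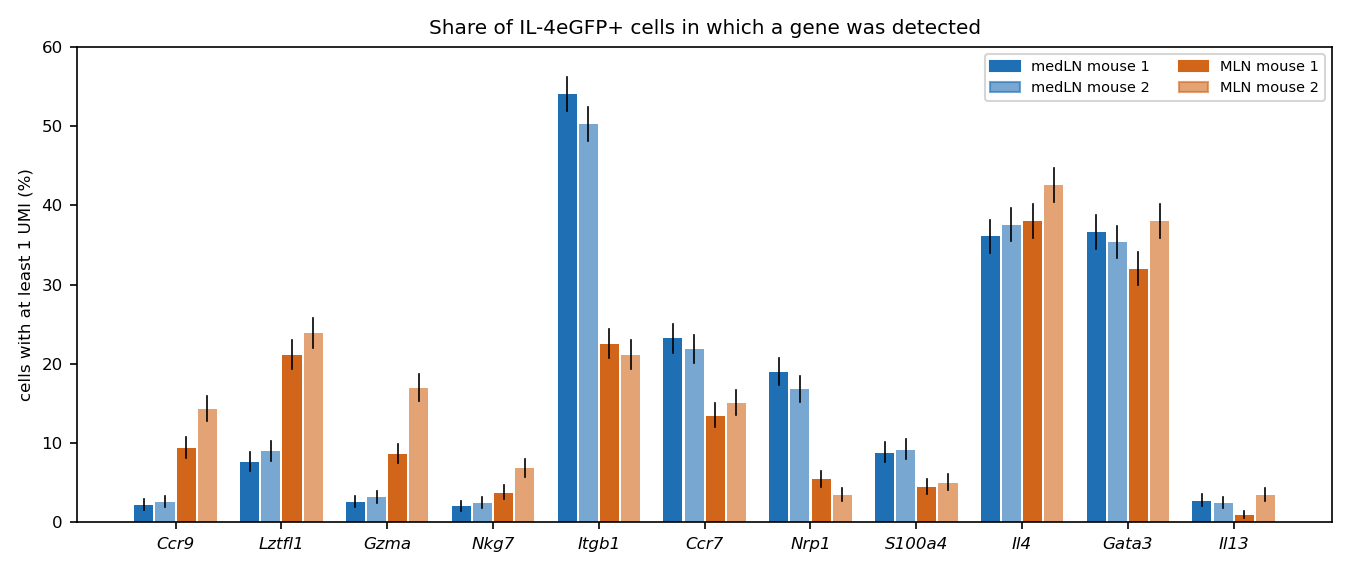
Percent of IL-4eGFP+ cells in which a gene was detected, for each of the 4 samples, with bars for samples and lines for exact 95% Clopper-Pearson intervals that cover counting error only. Ccr9, Lztfl1, Gzma and Nkg7 were found in fewer cells in medLN (blue) than in MLN (orange), and Itgb1, Ccr7, Nrp1 and S100a4 in more. Gata3 and Il13 overlapped between organs, as did the intervals of Il4 in medLN of mouse 2 and MLN of mouse 1.

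Itgb1, the integrin β1 chain, had 486 and 360.1 CPM in medLN of mouse 1 and 2 and 119 and 89.7 CPM in MLN. Both medLN samples exceeded both MLN samples by about the same factor in each mouse, with log2 fold changes of 2.03 and 2.00, and the fitted value was 2.02 ± 0.053, adjusted p = 1.86e-07. Itgb1 was detected in 54% and 50.3% of the medLN cells and 22.6% and 21.2% of the MLN cells of mouse 1 and 2. S100a4, a calcium-binding protein of motile cells, had 83.2 and 73 CPM in medLN of mouse 1 and 2 and 26.2 and 25.8 CPM in MLN and did not overlap between organs (1.58 ± 0.085, adjusted p = 1.25e-05). Nrp1, a semaphorin and VEGF co-receptor, had 59.9 and 49.1 CPM against 13.7 and 9.06 CPM in MLN (2.27 ± 0.11, adjusted p = 4.73e-06), and within each sample it was seen more often in cells with an Itgb1 UMI (27.3% to 28.7% in medLN, 10.3% to 14.8% in MLN) than in those without (6.26% to 7.47% and 1.57% to 2.71%). At 2000 UMIs these shares were 16.0% to 17.1% in medLN and 6.83% to 9.41% in MLN with an Itgb1 UMI, and 4.16% to 6.61% and 0.861% to 1.74% without.

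Of 15 tested genes of homing to inflamed tissue, 14 had a log2 fold change above 0 (median 0.17), beside 5676 of all 11313 genes tested. Past the threshold, 5 rose and 0 fell. Besides Itgb1 and Ccr3, these were Ccr4, a skin and lung homing receptor of Th2 cells, with 91.1 and 95.4 CPM against 72 and 58.7 CPM in MLN (0.52 ± 0.091, adjusted p = 0.0174), and Fut7 (2.56 ± 0.36, adjusted p = 0.00633) and Gcnt1 (1.31 ± 0.24, adjusted p = 0.022), glycosyltransferases, both of which reached at most 7.11 CPM. Of this list, DESeq2 called 1 gene, Itgb1. Cxcr3, the receptor of Th1-type chemokines, was at 12 and 17 CPM against 14.1 and 14.9 CPM with overlapping groups (0.0043 ± 0.14, adjusted p = 0.991). Among actin and cytoskeleton genes 5 of 22 rose and 0 fell (median 0.029). Vim, the intermediate filament vimentin, had 977 and 976 CPM against 581 and 677 CPM in MLN (0.64 ± 0.058, adjusted p = 0.000549), Ahnak 200.1 and 180.5 CPM against 120.4 and 121 CPM (0.65 ± 0.062, adjusted p = 0.000731), the actin crosslinker Flna 257 and 258 CPM against 167 and 183 CPM (0.56 ± 0.056, adjusted p = 0.00101) and the actin-capping gene Capg 128 and 114 CPM against 66.3 and 73.4 CPM (0.79 ± 0.083, adjusted p = 0.00115). None of these overlapped between organs. Of the S100 and annexin genes only S100a4 and Anxa2 (0.55 ± 0.083, adjusted p = 0.00866) of 11 tested passed, and the list's median was -0.0078.

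Several cytotoxic and innate-like genes were lower in medLN. Gzma, a granzyme, had 45 and 51 CPM in medLN of mouse 1 and 2 and 136 and 524 CPM in MLN. Both MLN samples exceeded both medLN samples, but the sample of mouse 2 was far above that of mouse 1, and the log2 fold change was -1.60 in mouse 1 and -3.35 in mouse 2 (-2.56 ± 0.30, adjusted p = 0.00229). Without mouse as a term Gzma did not pass (adjusted p = 0.0596), nor with DESeq2 (adjusted p = 0.219). Of 11 tested genes of the cytotoxic and NK receptor list, 8 had a log2 fold change below 0 and 3 above. The highest was 1.62 and did not pass. Of these 11 genes 5 fell and 0 rose, with a median of -0.44. These included Nkg7, a protein of cytotoxic granules, with 23.4 and 21.4 CPM in medLN of mouse 1 and 2 and 55.2 and 75.7 CPM in MLN, in which the groups did not overlap (-1.54 ± 0.13, adjusted p = 0.000278), Cd160, a receptor of NK and innate-like T cells, with 14.1 and 22.2 CPM against 45.1 and 47.3 CPM in MLN (-1.35 ± 0.13, adjusted p = 0.000731), and the granule protease inhibitor Cst7 with 187 and 186 CPM against 240.1 and 265 CPM (-0.44 ± 0.058, adjusted p = 0.0043). Klrb1c, which encodes NK1.1, had 2.96 and 3.8 CPM against 9.85 and 10.2 CPM (-1.56 ± 0.21, adjusted p = 0.00464).

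Of the innate-like T cell list, 3 of 9 tested genes fell and 1 rose (median -0.30). Fcer1g, a signaling adaptor, fell (-1.54 ± 0.22, adjusted p = 0.00699), and Il2rb, a chain of the IL-2 and IL-15 receptor, rose with 161 and 166 CPM against 129 and 138 CPM (0.29 ± 0.057, adjusted p = 0.0319). Zbtb16, the factor PLZF that defines NKT cells, was low in all samples, at 2.74 and 1.6 CPM in medLN of mouse 1 and 2 and 3.25 and 2.1 CPM in MLN (-0.30 ± 0.31, adjusted p = 0.743), and Tbx21, the Th1 factor T-bet, was at 4.22 and 3.2 CPM against 2.38 and 1.81 CPM (0.82 ± 0.29, adjusted p = 0.23). Cells with a UMI of Zbtb16, Klrb1c, Gzma, Nkg7, Klrd1, Klrk1, Cd160 or Xcl1 made up 9.77% and 13% of medLN cells and 24.8% and 35.7% of MLN cells of mouse 1 and 2. They are called innate-like and cytotoxic cells below by this rule alone, which can also take in effector Th2 cells. Their type was not tested. Gzma was found in 2.56% and 3.16% of the medLN cells and 8.63% and 17% of the MLN cells, at 2000 UMIs in 1.83% and 1.95% of the medLN cells and 6.17% and 13.1% of the MLN cells, and in 0.934% to 2.32% of IL-4eGFP- cells. Klrb1c was detected in 0 of 53 and 0 of 66 Gzma-detected medLN cells, with exact upper limits of 6.72% and 5.44%, against 1.34% and 1.68% of the medLN cells without a Gzma UMI. In MLN of mouse 1 and 2 the shares were 2.31% and 1.75% of Gzma-detected against 3.66% and 4.72% of the other cells. The shares of Gzma-detected cells were the lower ones in all 4 samples, although these cells were deeper, and in MLN of mouse 2 the exact intervals barely overlapped (0.646% to 3.78% against 3.76% to 5.85%). At 2000 UMIs the shares were 2.78% against 2.68% in MLN of mouse 1 and 0.417% against 2.77% in MLN of mouse 2.

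Leaving out cells with any of these 8 genes, of which Gzma, Nkg7, Cd160 and Klrb1c were themselves lower in medLN, took 12.7% and 17.1% of all UMIs in medLN of mouse 1 and 2 and 30.7% and 46.2% in MLN, so that the filter was not neutral between organs. In that fit 235 of the 265 called genes passed again, among 878 calls (490 higher and 388 lower in medLN), and Itgb1 (1.92), S100a4 (1.62), Ccr9 (-2.45) and Lztfl1 (-1.74) kept log2 fold changes of at least 1.62 in size. Plac8 kept a smaller log2 fold change of -0.69, and Adam8 (-0.48, adjusted p = 0.175) and Itgae (-0.52, adjusted p = 0.253) no longer passed. The larger count went with higher prior degrees of freedom of the fit, a measure of how alike the spread is over genes (69.9 against 8.29).

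The main Th2 genes did not separate the organs. Il4 was at 154 and 185 CPM in medLN of mouse 1 and 2 and 169 and 181 CPM in MLN, with overlapping groups and a log2 fold change of -0.054 ± 0.061 (adjusted p = 0.774). Gata3 was at 173 and 155 CPM in medLN of mouse 1 and 2 and 162 and 185 CPM in MLN, where mouse 1 and mouse 2 pointed in opposite directions (0.095 and -0.26, adjusted p = 0.711). Il1rl1, which encodes the IL-33 receptor, had 17.3 and 21 CPM against 14.9 and 24.3 CPM and overlapped too (-0.028 ± 0.13, adjusted p = 0.954). Of the 17 tested Th2 genes 4 rose, 1 fell and 12 did not pass, with a median of -0.028. Without the innate-like and cytotoxic cells, Gata3 (0.28) and Il1rl1 (0.84) passed with values above 0. The cells left out held 44.8% and 64.0% of the Gata3 UMIs of MLN of mouse 1 and 2 against 17.2% and 23.3% in medLN, and 64.5% and 76.5% of the Il1rl1 UMIs against 31.1% and 25.2%, so these values do not compare like with like.

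The cytokines IL-13 and IL-5 came from few cells. Il13 was at 133 and 141 CPM in medLN of mouse 1 and 2 and 28.5 and 123 CPM in MLN, so that MLN of mouse 1 was far below the other 3 samples (1.05 ± 0.34, adjusted p = 0.177). It was detected in 57, 50, 19 and 70 cells in the same order. Without the innate-like and cytotoxic cells its log2 fold change was 2.98 and passed, but these cells held 88.2% and 88.5% of the Il13 UMIs in MLN of mouse 1 and 2 and 37.3% and 20.4% in medLN, so that removal was unequal between organs. At 2000 UMIs per cell Il13 also passed (0.95, adjusted p = 0.00408). Il5 had 9.92 and 10.8 CPM in medLN of mouse 1 and 2 and 18.9 and 5.82 CPM in MLN, with MLN of mouse 1 highest and MLN of mouse 2 lowest (-0.15 ± 0.33, adjusted p = 0.897), in 21, 23, 5 and 14 cells, and 38.4% of its UMIs were in 1 cell. Il9 and Il31 had 0 UMIs in each sample of 2004 to 2087 cells, which allows a share of cells with a UMI of up to 0.144% to 0.150%.

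The Th2 genes that rose were Areg, Pparg, Ccr3 and Ccr4. DESeq2 called 0 of the 17 tested Th2 genes, with an adjusted p of 0.142 for Areg, 0.243 for Pparg, 0.376 for Ccr3 and 0.145 for Ccr4. Pparg, a lipid-sensing factor of effector Th2 cells, had 17 and 14.9 CPM against 6.49 and 7.73 CPM in MLN (1.16 ± 0.16, adjusted p = 0.00628). Areg, an epidermal growth factor family ligand, had 16.2 and 58.8 CPM against 5.84 and 7.82 CPM (2.41 ± 0.24, adjusted p = 0.000995), but 20.1% of its UMIs were in 1 cell and the cells with a UMI were 24 and 27 in medLN and 19 and 30 in MLN, that is 1.16% and 1.29% of the medLN cells and 0.948% and 1.49% of the MLN cells. Without mouse as a term it did not pass (adjusted p = 0.118). Hpgds, a prostaglandin D2 synthase, fell, with 8.55 and 7.41 CPM against 17.7 and 13.5 CPM (-0.96 ± 0.15, adjusted p = 0.00936).

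Follicular helper genes showed no common direction, with 2 of 20 higher, 4 lower, a median of -0.023 and 1 call with DESeq2. Their lineage factor Bcl6 was at 48.8 and 59.9 CPM in medLN of mouse 1 and 2 and 68.2 and 54.1 CPM in MLN and overlapped between organs (-0.16 ± 0.13, adjusted p = 0.645), and Cxcr5, the B cell zone homing receptor, at 52.7 and 69.9 CPM against 90.1 and 72.3 CPM (-0.40 ± 0.14, adjusted p = 0.212). Angptl2 rose with 23.2 and 24.2 CPM against 11 and 12.9 CPM (0.99 ± 0.12, adjusted p = 0.00229) and Icos, a costimulatory receptor, with 411 and 410.1 CPM against 329 and 344 CPM (0.29 ± 0.049, adjusted p = 0.0151). Id3, an inhibitor of E proteins, fell with 185 and 177 CPM against 312 and 239 CPM (-0.60 ± 0.073, adjusted p = 0.00283), as did Tox2 with 77.9 and 91.3 CPM against 126 and 116 CPM (-0.52 ± 0.085, adjusted p = 0.0127), Tigit (-0.39 ± 0.054, adjusted p = 0.0055) and the ATP receptor P2rx7 (-0.45 ± 0.084, adjusted p = 0.0233). Of costimulatory and inhibitory receptors 6 of 22 fell and 1 rose (median -0.0062), among them Cd96 with 74.4 and 55.5 CPM against 111 and 89.9 CPM (-0.63 ± 0.071, adjusted p = 0.00174) and Cd27 (-0.37 ± 0.056, adjusted p = 0.00907).

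Foxp3, the factor of regulatory T cells, was low in IL-4eGFP+ cells of all samples, at 4.22 and 6.71 CPM in medLN of mouse 1 and 2 and 11.4 and 11.2 CPM in MLN, and fell in medLN (-1.04 ± 0.21, adjusted p = 0.0351), although not without the mouse as a term (adjusted p = 0.0988) or without innate-like and cytotoxic cells (adjusted p = 0.34). Of 14 regulatory T cell genes 2 rose (Nrp1 and Capg) and 4 fell (Foxp3, Itgae, Gpr83 and Tnfrsf9), with a median of 0.028. The costimulatory receptor Tnfrsf9 had 23.3 and 32.2 CPM against 40.7 and 43.3 CPM (-0.60 ± 0.10, adjusted p = 0.0168).

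Among transcription factors of helper lineages 4 of 28 rose and 2 fell (median -0.0081). Irf4, which drives effector differentiation downstream of the T cell receptor, had 99.9 and 75.7 CPM in medLN of mouse 1 and 2 and 51.7 and 48.1 CPM in MLN without overlap (0.80 ± 0.087, adjusted p = 0.0014), and Id2, an opponent of E proteins like Id3, had 259 and 222 CPM against 165 and 164 CPM in MLN (0.54 ± 0.064, adjusted p = 0.00229), so that both Id genes moved in opposite directions. Ahr (0.50) and Rora (0.53) also rose. Of TGFβ target genes 2 of 14 rose (Id2 and Smad7, 0.71 ± 0.15, adjusted p = 0.0409) and 2 fell (Id3 and Itgae), with a median of 0.33.

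Effector-associated genes split. Plac8, a small cysteine-rich protein of activated T cells, had 118 and 95.1 CPM in medLN of mouse 1 and 2 and 205 and 328 CPM in MLN, with the highest level in MLN of mouse 2 and no overlap (-1.29 ± 0.17, adjusted p = 0.00484), but DESeq2 did not call it (adjusted p = 0.555). Adam8, a membrane protease, fell with 11 and 10.1 CPM against 23 and 34.1 CPM (-1.44 ± 0.16, adjusted p = 0.0014). Fgl2, a fibrinogen-like immunoregulatory protein, rose with 17.2 and 18.6 CPM against 4.76 and 8.2 CPM (1.46 ± 0.18, adjusted p = 0.00283), as did Igfbp7 with 14.9 and 7.01 CPM against 2.92 and 1.91 CPM (2.15 ± 0.23, adjusted p = 0.00131), although at 2000 UMIs per cell its log2 fold change was 1.12 and did not pass (adjusted p = 0.159). In all 3 of 14 tested members of this list rose and 6 fell (median -0.24).

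All 8 GIMAP genes, GTPases of lymphocyte survival, had a log2 fold change below 0 (median -0.21), beside 5637 of all 11313 genes tested. Of the 8 genes, 3 fell past the threshold. Gimap7 led with 115 and 121 CPM in medLN of mouse 1 and 2 and 208 and 238 CPM in MLN, where the lowest MLN sample was well above the highest medLN sample (-0.92 ± 0.059, adjusted p = 4.63e-05). Gimap6 (-0.39 ± 0.061, adjusted p = 0.0109) and Gimap5 (-0.31 ± 0.065, adjusted p = 0.0437) fell as well, with smaller log2 fold changes. Of 37 tested interferon response genes 2 fell and 0 rose (median -0.11): Ly6e with 1632 and 1641 CPM against 2040.4 and 2027 CPM (-0.31 ± 0.043, adjusted p = 0.00496) and the guanylate-binding protein Gbp2 with 25.9 and 28.6 CPM against 38.6 and 44 CPM (-0.60 ± 0.084, adjusted p = 0.00615).

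All 23 genes of G2 and M phase and all 22 of S phase had a log2 fold change above 0, beside 5676 of all 11313 genes tested. The list medians were 0.23 and 0.17. Of these 23 and 22 genes, 5 and 0 passed with edgeR and 1 and 0 with DESeq2. For S phase, 9 had an unadjusted p below 0.05 with edgeR, beside 1576 of all 11313 genes tested at that cut. These genes move together in cycling cells and are not independent. Top2a, a topoisomerase of dividing cells, had 262 and 251 CPM against 194 and 198 CPM in MLN (0.38 ± 0.054, adjusted p = 0.00607), and the proliferation marker Mki67 305 and 296 CPM against 235 and 245 CPM (0.32 ± 0.053, adjusted p = 0.0127). Nusap1 (0.46), Tpx2 (0.33) and Kif11 (0.36) rose as well. The linker histone Hist1h1a had 96.8 and 79.3 CPM against 50.2 and 55.1 CPM (0.73 ± 0.1, adjusted p = 0.00496). Cells with 2 or more UMIs of 8 cycling genes made up 14.2% and 16.1% of medLN and 12.6% and 16.5% of MLN cells, so that these shares overlapped between organs.

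Activation and metabolic lists held few calls. Of 21 early response genes 2 rose (median 0.15), Ier3 (1.74 ± 0.19, adjusted p = 0.0017) and the phosphatase gene Dusp2 (0.44 ± 0.069, adjusted p = 0.0114), whereas Cd69 had 67.8 and 70.8 CPM against 70.7 and 70.6 CPM (-0.028 ± 0.072, adjusted p = 0.918). Of 18 TNF and NF-κB targets Nfkb1 rose (0.34 ± 0.058, adjusted p = 0.0148) and Ebi3 (-0.80 ± 0.09, adjusted p = 0.00182) and Tnfrsf9 fell (median 0.028), and of 18 IL-2 and STAT5 targets Il2rb alone passed (median 0.17). Ebi3, a cytokine subunit, was also the 1 call among 12 other helper cytokines. In glycolysis Hif1a, the hypoxia factor, rose (0.27 ± 0.055, adjusted p = 0.0378) and the glucose transporter Slc2a3 fell (-0.94 ± 0.15, adjusted p = 0.0128), with a median of -0.079 over 18 genes. Of all 11313 genes tested, 1576 had an unadjusted p below 0.05 with edgeR, the background for the counts at that cut given next. Of 11 heat shock and dissociation genes 0 passed with edgeR or DESeq2 (median 0.0016), and 0 had an unadjusted p below 0.05. Of 7 T cell identity genes 0 passed with either tool (median -0.0072), and 3 had an unadjusted p below 0.05. Of 9 tested B cell markers Ighm alone fell (median -0.28), and of 6 myeloid markers 0 passed with either tool (median -0.46), 3 of them at an unadjusted p below 0.05.

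**Figure D4:**
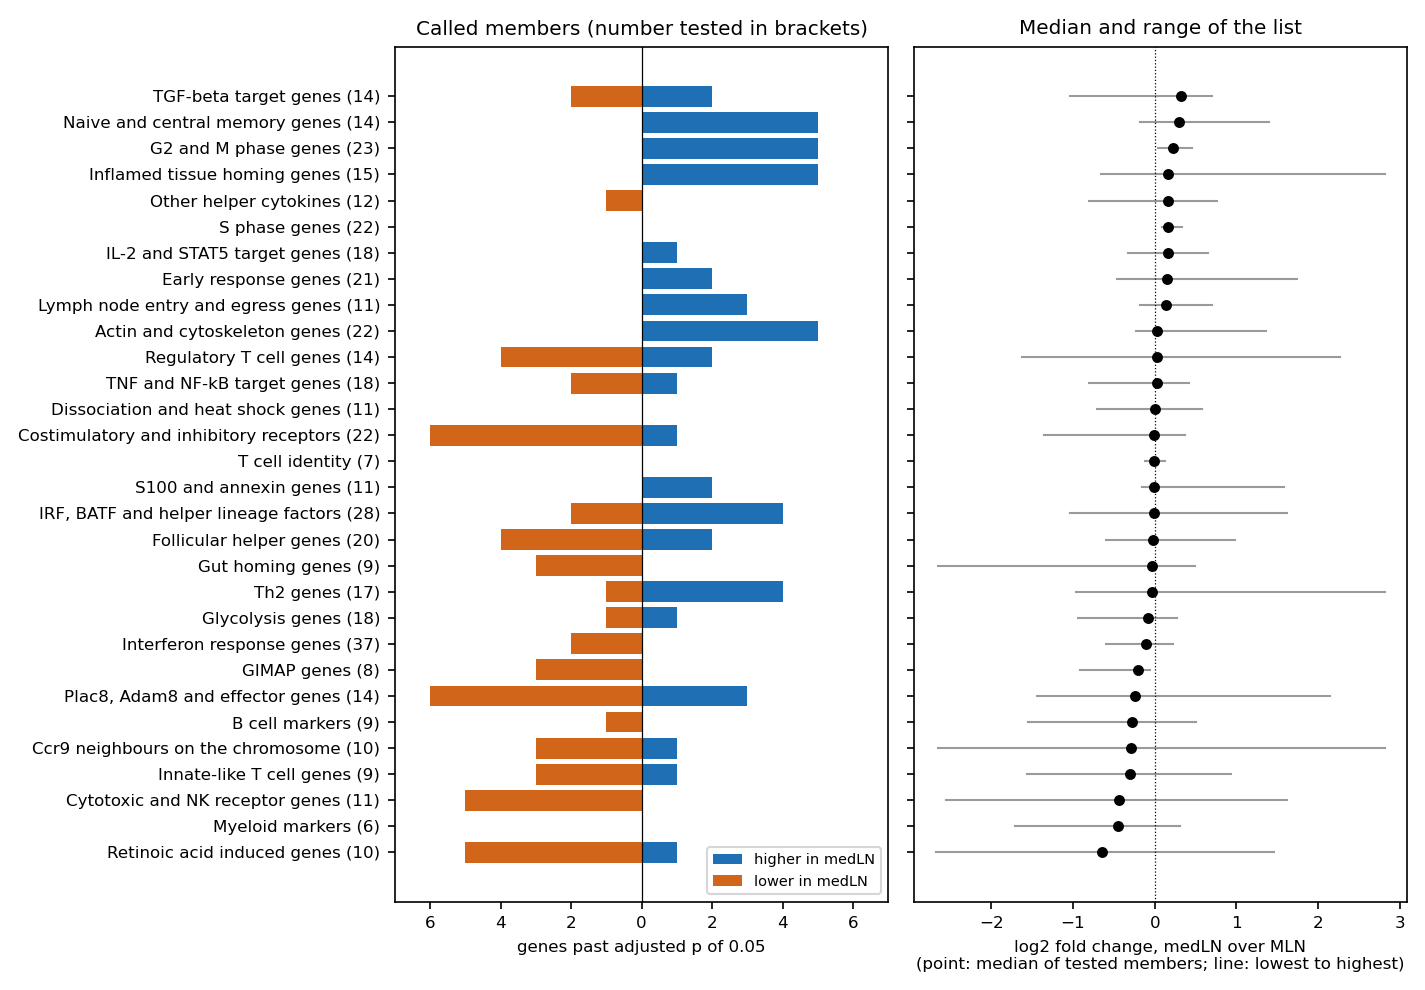
Gene lists with 5 or more tested members, ordered by the median log2 fold change of medLN over MLN. The left panel gives the number of members past an adjusted p of 0.05 in each direction (number tested in brackets), the right panel the median (point) and the range (line) of all tested members, with the median of all genes dotted. Naive and central memory, inflamed tissue homing, G2 and M phase and lymph node entry lists are among those with only higher calls, and the retinoic acid list has the lowest median, -0.64. The lists were chosen with earlier results of these data known, which can shape this order.

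Other genes named by size of change were Esyt1, a lipid transfer protein at membrane contacts (139 and 132 CPM against 79.6 and 94.3 CPM, 0.64 ± 0.08, adjusted p = 0.00311), and the unconventional myosin Myo6 (85 and 74.6 CPM against 51 and 50.6 CPM, 0.65 ± 0.079, adjusted p = 0.00265), which were higher in medLN. Lower were the lysosomal protease Lgmn (45.7 and 48.3 CPM against 62.4 and 116 CPM, -0.88 ± 0.15, adjusted p = 0.0168), the lysosomal peptide transporter Abcb9 (40.9 and 51.2 CPM against 74.9 and 71.4 CPM, -0.67 ± 0.099, adjusted p = 0.00797) and Gm19585 (53.5 and 53.2 CPM against 77.6 and 90.1 CPM, -0.65 ± 0.081, adjusted p = 0.00306). In all of these the groups did not overlap.

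Immunoglobulin genes also passed, most of them with the majority of UMIs in 1 cell. Of the 265 called genes, 13 were immunoglobulin genes or Jchain, and in 11 of them more than 50% of the UMIs were in 1 cell. Igkv17-127 had 7108 UMIs in medLN of mouse 1, 17 in medLN of mouse 2, 0 in MLN of mouse 1 and 1 in MLN of mouse 2, with 99.6% of its UMIs in 1 cell, and 11678 UMIs in IL-4eGFP- cells of medLN of mouse 1. Ighv1-47 had 1.27 and 1.8 CPM against 307 and 2.19 CPM, with 97.5% of UMIs in 1 cell, and Igkv4-57 263 and 0 CPM against 445 and 0.477 CPM, with 61.8%. Jchain, which joins secreted antibodies, had 106 and 15.3 CPM against 279 and 42.5 CPM (-1.42 ± 0.069, adjusted p = 6.03e-06) with mouse 1 above mouse 2 in both organs, and Ighm, the heavy chain of IgM, had 118 and 149 CPM against 216 and 179.5 CPM (-0.57 ± 0.12, adjusted p = 0.0375). Cells with 100 or more immunoglobulin UMIs numbered 7 and 2 in medLN and 4 and 3 in MLN and held 94.8%, 58.6%, 92.9% and 73.9% of these UMIs. Near-identical V gene copies could share reads, so these values are uncertain.

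Whether the differences were also present in CD4 T cells without IL-4 reporter activity was tested with the 8932 IL-4eGFP- cells of the same nodes. Of 11534 genes tested for an interaction of sort gate and organ, 68 passed (0.590%). In IL-4eGFP- cells alone 66 of 10740 genes passed (0.615%), of which 54 were higher and 12 lower in medLN. These counts by direction are the background for the calls in that gate given below. Of the 251 genes called in IL-4eGFP+ cells without immunoglobulin genes, 41 passed the interaction, and in 39 of these the log2 fold change was larger in size in IL-4eGFP+ than in IL-4eGFP- cells, the 2 exceptions being Tigit and Ly6d. This is largely given by the choice, since the genes were picked by their difference in IL-4eGFP+ cells and both tests used those counts. Of 109 higher genes tested in both gates, 14 were also called higher and 1 lower in IL-4eGFP- cells, and of 102 lower genes 4 were called lower and 2 higher. Called or not, 90 of the 109 and 63 of the 102 had the same sign in IL-4eGFP- cells. The share of equal signs over all genes was not computed. Igfbp4 rose in IL-4eGFP+ cells (1.32) and fell in IL-4eGFP- cells (-0.23 ± 0.048, adjusted p = 0.0401), a difference of 1.56 ± 0.14 (adjusted p = 0.00123). Ccr7 did not pass in IL-4eGFP- cells (-0.072, adjusted p = 0.794, difference 0.77). Il7r (-0.077, difference 0.65) and S1pr1 (-0.087, difference 0.66) were likewise only slightly negative there. Tigit, an inhibitory receptor, fell in IL-4eGFP+ cells and rose in IL-4eGFP- cells (1.32 ± 0.12, adjusted p = 3.88e-05), with a difference of -1.70 ± 0.15 (adjusted p = 0.00111). Ramp1, which was at -0.12 ± 0.064 in IL-4eGFP- cells, differed by 2.39 ± 0.14 (adjusted p = 7.78e-05). Its level in IL-4eGFP- cells was 88.7 and 90.7 CPM in medLN and 102 and 93.3 CPM in MLN, above every IL-4eGFP+ sample. The same held for Ccr7, with 339 and 324 CPM in medLN and 354 and 344 CPM in MLN. CPM were scaled within each gate.

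Lztfl1 and Plac8 differed between the gates as well, with -0.53 ± 0.13 and 0.66 ± 0.33 in IL-4eGFP- cells and adjusted p values of 0.00413 and 0.00958 for the interaction. Itgb1 and Nrp1 rose in both gates (1.24 ± 0.079 and 1.41 ± 0.14 in IL-4eGFP- cells), and by more in IL-4eGFP+ cells (0.78 ± 0.14 and 0.85 ± 0.15, adjusted p = 0.0467 and 0.0468). Ccr9 was lower in medLN in both, with -1.41 ± 0.19 in IL-4eGFP- cells (adjusted p = 0.00111), and the difference of -1.23 ± 0.35 did not pass (adjusted p = 0.235). S100a4 (1.44 ± 0.19) and Gzma (-2.29 ± 0.16) also moved in IL-4eGFP- cells, with differences of 0.14 ± 0.25 and -0.50 ± 0.32 that did not pass.

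**Figure D5:**
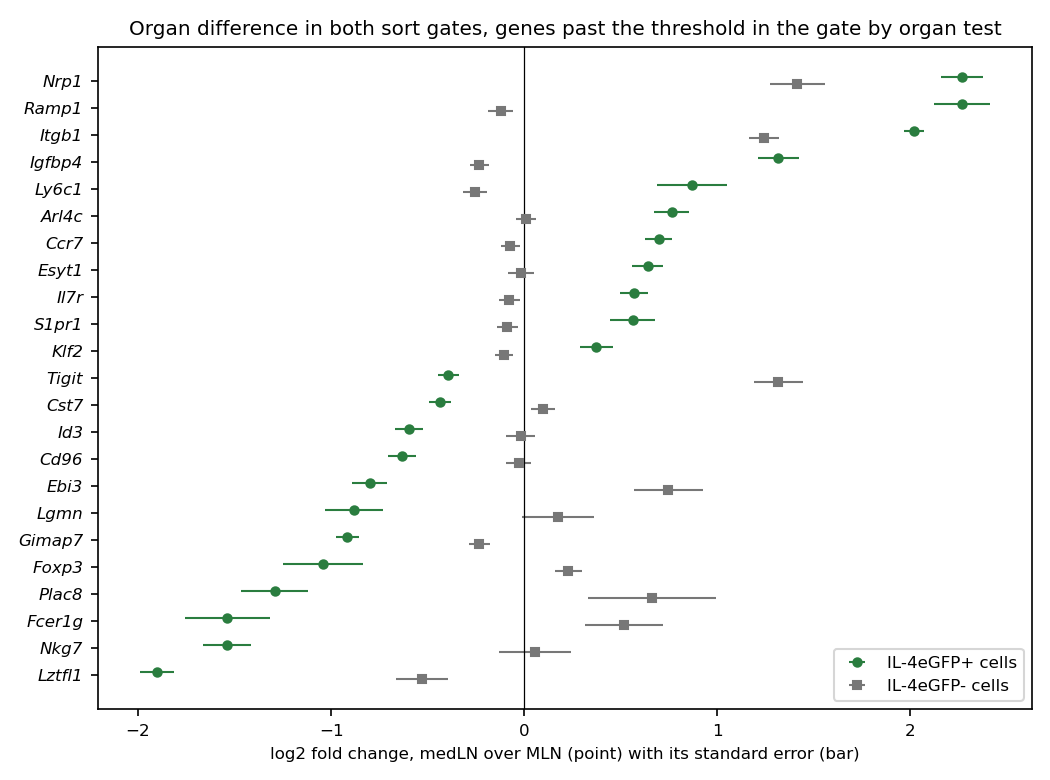
Log2 fold change of medLN over MLN with its standard error for 23 named genes that passed the test of gate by organ, in IL-4eGFP+ cells (green circles) and IL-4eGFP- cells (gray squares). Igfbp4, Arl4c, Ccr7 and Il7r lie above 0 in IL-4eGFP+ cells and near or below 0 in IL-4eGFP- cells, and Itgb1 and Nrp1 lie above 0 in both.

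Values from lung and MLN Th2 cells of 2 other 4get mice, infected at 13 weeks of age and sequenced in another run, can be set beside these. There, 3886 of 10588 genes passed in either direction (36.7%), 2107 of them higher and 1779 lower in lung than in MLN. The counts by direction are the background for calls in the same direction, and no test was made between the runs. Cells of the lung and MLN run also had to hold a productive T cell receptor α and β chain, unlike the node cells. Of 120 genes higher in medLN than in MLN and tested there, 81 were also higher in lung and 6 lower. Of 119 that were lower in medLN, 65 were lower and 29 higher in lung. S100a4 (log2 fold change 4.75 ± 0.14 for lung over MLN), Itgb1 (1.70 ± 0.11), Capg (3.58 ± 0.14) and Irf4 (1.97 ± 0.15) were higher in lung as well as in medLN. Plac8 (2.45 ± 0.12), Nkg7 (1.83 ± 0.17), Itgae (2.21 ± 0.22), Cxcr6 (2.02 ± 0.11) and Lztfl1 (0.87 ± 0.12) were lower in medLN but higher in lung than in MLN. Ccr9, unlike Lztfl1, did not pass between lung and MLN with edgeR (-0.39 ± 0.18, adjusted p = 0.0886). Gata3 (2.03 ± 0.11) and Il13 (3.38 ± 0.44), which did not pass between the nodes, were higher in lung, and Il4 had a log2 fold change of 0.36 ± 0.11.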

How the data were processed

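Per the labels and methods, CD4+ cells of 4get mice were captured with the 10x Genomics 5′ kit, and the submitters' processing notes name Cell Ranger 6.1.2 and the builds mm10 and GRCm38 without assigning them a role. The authors deposited raw UMI counts per gene and barcode for both node libraries and hashtag counts in the same tables, and counts of 4 lung and MLN libraries of another run. Whether counting used strand is not given in the sources used here.

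From these counts, cells were filtered and given to a hashtag as described above, T cell receptor genes (0.399% to 0.446% of UMIs) were left out, and the remaining counts were summed per hashtag sample. The 4 sums were tested with edgeR 4.0.16 (quasi-likelihood F test, TMM, filterByExpr, R 4.3.3) with the mouse as a block, since both nodes came from the same animal. Deviations of same-numbered samples correlated at r = 0.267 over 11313 genes. The gate by organ interaction used 8 sums with a term for each hashtag sample. Shares of cells have exact Clopper-Pearson 95% intervals, which cover counting error only, and were not tested between organs, since 2 against 2 samples cannot go below p = 0.33 in a two-sided exact permutation test. For equal depth, cells were thinned to 2000 UMIs, and shallower cells (183 to 267 per sample) were left out. Lung and MLN libraries were tested in the same way with their own filters, which added a novelty score above 0.8 and a productive T cell receptor α and β chain. The node cells had no such requirement.

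Named genes were, first, the 12 with the largest change in each direction among called genes of 50 CPM or more with the same sign in both mice, second, up to 4 called members of each list by p, and in addition a fixed set of homing, lineage and cytokine genes. Another 18 genes, among them Ramp1, Rarg, Tgm2, Icos, P2rx7, Gcnt1, Ly6c1, Ahr, Rora, Kif11 and uncalled list members, were named after their values were seen. The members, lists and rules were chosen with earlier results of these data known. Some genes are not reported here and were left out of the lists, their counts and the named genes. On simulated counts, 200 of 200 genes changed by log2 1 were found with 10 false calls (11188 genes), and for the interaction at log2 2, 200 of 200 with 9 false calls (11285 genes). The changed genes all had a mean over 10 CPM, mice did not differ, and the spread was set by expression level alone. These counts therefore do not cover lower genes, or genes with UMIs in few cells. Scrublet (scanpy 1.11.5) marked 0 IL-4eGFP+ cells and did not work here, so doublets were removed only by the hashtag rule. Alternatives were DESeq2 1.42.0, other normalization, filters, hashtag calls (HTODemux of Seurat 5.3.0) and cell subsets, and leaving out each sample. Positions are from GENCODE M21 on GRCm38 and promoters from RefSeq on GRCm38.p6, where 13 of 14 retinoic acid list genes matched.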

Additional observations from a re-analysis of the deposited data

Results flagged for a closer look

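For 25 named genes the difference between medLN and MLN was not the same in both sort gates by the test of the interaction (edgeR, adjusted p below 0.05, 8 hashtag samples). Values are the log2 fold change of medLN over MLN in IL-4eGFP+ cells minus that in IL-4eGFP- cells ± SE. Among homing and memory genes it was 1.56 ± 0.14 for Igfbp4, 2.39 ± 0.14 for Ramp1, 1.13 ± 0.16 for Ly6c1, 0.78 ± 0.14 for Itgb1 and 0.85 ± 0.15 for Nrp1. It was 0.77 for Ccr7, 0.76 for Arl4c, 0.66 for S1pr1, 0.65 for Il7r and 0.48 for Klf2, although Klf2 did not pass in IL-4eGFP+ cells alone (adjusted p = 0.0665). Esyt1 had 0.66.

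Of the genes lower in medLN, Lztfl1 had -1.36 ± 0.16, Plac8 -1.99 ± 0.26, Nkg7 -1.59 ± 0.15 and Fcer1g -2.04 ± 0.29. Tigit (-1.70), Ebi3 (-1.55) and Foxp3 (-1.26) fell in IL-4eGFP+ cells and had a log2 fold change above 0 in IL-4eGFP- cells (1.32, 0.75 and 0.23), where only Tigit passed (adjusted p = 3.88e-05, 0.0886 and 0.252). The difference was -1.08 for Lgmn, -0.68 for Gimap7, -0.60 for Cd96, -0.58 for Id3 and -0.53 for Cst7. Jchain (-4.61 ± 0.69) and Igkv4-57 (-12.50 ± 0.20) rest on few cells, and 61.8% of the Igkv4-57 UMIs in IL-4eGFP+ cells were in 1 cell.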

How the results depend on the processing

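Called genes of 265 (129 higher, 136 lower) were 110 (60 and 50) without the replicate block, 63 (33 and 30) with DESeq2, 598 (277 and 321) with no filter on low counts, in which all 265 passed again, 878 (490 and 388) without innate-like and cytotoxic cells and 927 (495 and 432) without cells holding a Ccr9 UMI. Leaving out 1 sample at a time, in fits with no block in which the lone sample of an organ is assumed to vary like the other organ, gave 18 to 356 genes (11 to 181 higher and 7 to 197 lower). These were 18 without medLN of mouse 1, 45 without medLN of mouse 2, 341 without MLN of mouse 1 and 356 without MLN of mouse 2. Between 200 and 336 genes passed with DESeq2 size factors (243), a stricter hashtag call (312), HTODemux (200), all 8 samples in the fit (313), no cycling cells (303), equal cell numbers (336), thinning (271) and, chosen after seeing the data, with T cell receptor genes kept (243) and without cells holding immunoglobulin, B cell or myeloid genes (329). The interaction counted 68 genes (21 higher, 47 lower), 46 (16 and 30) with no replicate block by hashtag sample, 34 (14 and 20) with DESeq2, 363 (168 and 195) with no filter and 95 to 171 (39 to 59 and 56 to 120) with 1 sample left out. Pairing by mouse comes from the animals, and without this block 38 of the 83 named genes that passed missed the threshold (adjusted p = 0.0504 to 0.931).

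Some directions turned. Without innate-like and cytotoxic cells log2 fold changes were 0.28 for Gata3, 1.66 for Il5, 0.84 for Il1rl1 and 0.24 for Itgb7, and without cells with a Ccr9 UMI 0.20 for Gata3, 0.94 for Il1rl1 and 0.28 for Itgb7. Both filters removed more from MLN. The first took 98.3% and 50.8% of the Il5 UMIs in MLN of mouse 1 and 2 against 35.1% and 25.9% in medLN. For Itgb7 it took 37.4% and 59.4% against 16.8% and 17.5%. The second took 60.1% and 60.8% of the Il1rl1 UMIs in MLN against 8.54% and 9.05% in medLN. These values therefore do not compare like with like. Igkv4-57 was at 0.24 without medLN replicate 2 and 8.07 without MLN replicate 1, where Jchain was at 0.51, and without medLN replicate 1 Igkv4-57 was at -14.11 and Jchain at -3.39. Genes that passed neither in the main comparison nor in the alternative also changed sign. Their values were -0.012 for Cxcr3 with DESeq2, 0.0012 for Itgb7 and -0.0039 for Cxcr3 with HTODemux, 0.0010 for Itgb7 with all 8 samples in the fit, 0.035 for Satb1, -0.0046 for Bach2, 0.049 for Cd69 and 0.14 for Itgb7 with thinning, -0.0085 for Cxcr3 with equal cell numbers, 0.0082 for Il1rl1, 0.0082 for Itgb7 and -0.015 for Cxcr3 with a stricter hashtag call, -0.031 for Itga4, -0.0019 for Slc6a20b and 0.0021 for Itgb7 without cells holding immunoglobulin, B cell or myeloid genes, 0.084 for Satb1, 0.029 for Gata3, 0.035 for Cd69, 0.12 for Fyco1 and 0.11 for Itgb7 without cycling cells, -0.070 for Bach2, 0.021 for Il4 and -0.45 for Cxcr3 without innate-like and cytotoxic cells. With 1 sample left out, their ranges, which also hold values that kept the main sign, were -0.19 to 0.077 for Il4, -0.058 to 0.0027 for Cd69, -0.34 to 0.36 for Il1rl1, -0.13 to 0.17 for Itga4, -0.73 to 0.049 for Zbtb16, -0.24 to 0.29 for Slc6a20b, -0.092 to 0.089 for Itgb7, -0.27 to 0.23 for Cxcr3, -0.026 to 0.50 for Bach2, -0.33 to 0.0057 for Bcl6, -0.11 to 0.016 for Tcf7, -0.24 to 0.22 for Fyco1 and -0.18 to 0.013 for Gata3. Il5 stands apart from these genes, since it did not miss the threshold in every such fit. It was at 0.83 without MLN of mouse 1 and at -0.87 without MLN of mouse 2. Of the other values of named genes over all alternatives 1472 kept direction and side of the threshold, 295 kept the direction and lost the threshold and 30 gained it. Losses were most frequent with a medLN sample left out, followed by DESeq2 with 46. Doublet removal by Scrublet could not be run as an alternative, and with 2 samples per organ and 5 to 30 cells with a UMI, differences of Il5 and Areg cannot be judged from the number of cells.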
